A study of Oryza sativa with 36 samples.

Results

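Control leaves were compared with control roots of rice at the panicle elongation stage, when the plant leaves vegetative growth and the young panicle forms. Members were taken from the deposited labels: 3 arrays of leaves and 3 of roots, all from control plants, or 6 of the 36 arrays of the study. All plants were of 1 rice line, DK151, an inbred line from a cross of a pair of drought-tolerant introgression lines in the IR64 background, and each replicate was an individual plant grown in a tube of baked clay in a glasshouse and fed with nutrient solution. Other groups used here were the same organs of control plants at tillering, both organs at panicle elongation from plants whose tubes had been drained until the leaves rolled (drought), and control leaves and control young panicles at booting, with 3 arrays each. Results therefore hold for 1 line and 1 growth system, and whole leaves and roots hold many cell types.

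The leaf is the plant's source of carbon. Its mesophyll chloroplasts hold the photosystems, the Calvin cycle and, with peroxisomes and mitochondria, the photorespiratory pathway that recovers carbon after Rubisco has taken up oxygen. The root takes up water and minerals through transporters in the outer and inner cell layers, imports sugar from the leaf, and in wet rice soils meets low oxygen.

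The deposited values are intensities of the Affymetrix rice genome array on a linear scale, 1 per probe set (the group of short probes that measures 1 transcript). Array medians of the 6 arrays ran between 59.9 and 63.9, beside a median of 59.7 over all values of the study. Replicates differed in how alike they were. Across probe sets, leaf replicates 1 and 3 correlated at 0.993 on the log2 scale, but replicate 2 correlated at only 0.944 and 0.943 with them. The root replicates correlated at 0.969 to 0.975, and replicates of the other 10 groups at 0.973 to 0.995. In leaf replicate 2, 908 probe sets lay at least 5-fold from both other leaves, 286 of them above and 622 below, against 1 and 2 in leaf replicates 1 and 3. In root replicates 1, 2 and 3 there were 153, 44 and 111 such probe sets. Where a call or a main value rests on leaf replicate 2, the value without it is given. The number of arrays, 3 a group, limits the precision, and an exact permutation test of 3 arrays against 3 cannot give a two-sided p below 0.10.

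The labelled tissues were checked with marker genes. Of 9 leaf mesophyll markers, 8 were called higher in leaves by the criteria given below, the exception being the second Rubisco small subunit RBCS1, which was low in both tissues. Their summed intensity was 72013, 78481 and 73143 in leaves, against 759, 3447 and 10245 in roots. Root replicate 3 thus held the largest mesophyll marker sum of the control roots, since control roots at tillering summed to 2740 to 3439. Of 10 root markers, 8 were called higher in roots, and their sums were 4799 to 7713 in leaves and 25923 to 36210 in roots. The other 2, the nicotianamine aminotransferase NAAT1 and the peroxidase PRX112, were not called. Markers of young panicle and meristem summed to 1298 to 1640 in leaves and 1591 to 2487 in roots, far below the 18297 to 20883 of young panicles at booting. Most of the leaf and root sums came from MADS16, with 768, 1109 and 844 in leaves and 1615, 1346 and 2207 in roots. Only the floral regulator MADS3 among these 9 markers was called, with 229, 294 and 267 in leaves, against 11.8, 12.8 and 38.8 in roots. MADS3 had 276, 218 and 272 in control young panicles at booting, so it did not set young panicles apart from leaves. None of 5 anther markers was called. The share of each cell type in the samples was not measured, and in whole tissues fewer cells of a type and less RNA per cell cannot be told apart.

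Leaves and roots differed in a broad set of transcripts. A probe set was called where its Benjamini-Hochberg adjusted p in limma was under 0.05 and its difference was 5-fold or more, the study's minimum. Of 57258 rice probe sets, 2656 (4.64%) were called higher in leaves and 2370 (4.14%) higher in roots. Differences were larger in the leaf direction. The median difference was 3.71 on the log2 scale among probe sets called higher in leaves and -3.30 among those called higher in roots, where every difference is leaf minus root. A difference of 32-fold or more was reached by 630 probe sets in the leaf direction and by 309 in the root direction, and of 100-fold or more by 80 and 47. The 3 leaf arrays lay wholly above the 3 root arrays for 2617 of the probe sets called higher in leaves, and wholly below for 2358 of those called higher in roots. Over all probe sets the leaves lay wholly above the roots for 26.4% and wholly below for 22.5%, and over genes, read from 1 probe set each, for 23.2% and 35.8%.

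Many of these transcripts were low in the other organ. In all 3 roots, 1174 of the 2656 probe sets called higher in leaves lay under the median of all values, and in all 3 leaves 1390 of the 2370 called higher in roots did. Detection calls were not used here, so a fold against such a low value depends on the array's background. With 1 probe set standing for each of 17905 genes, 1421 genes (7.94%) were called higher in leaves and 1530 (8.55%) higher in roots, and the median difference over all genes was -0.15. These shares are set beside the gene lists below. The lists hold only genes with a symbol (2456), whose own shares were not computed. Of the 3951 probe sets that could be named, 318 were called higher in leaves and 602 higher in roots. A list share above that of all genes may thus be near that of named genes. Of 665 genes with several probe sets and a call, 213 had all of them called the same way and 2 had calls both ways.

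The light reactions of photosynthesis gave the clearest leaf profile. Both light-harvesting genes and 6 of 8 genes of the photosystems and electron transport were called higher in leaves. The antenna protein gene LHCP had 11267, 11199 and 11399 in leaves, against 54.8, 159 and 659 in roots, and the antenna gene CAB2R had 10822, 10746 and 10999.8 in leaves, against 91.3, 771 and 2727 in roots. The leaf arrays varied by a few percent, while the root arrays spread widely, with replicate 1 lowest and replicate 3 highest in both genes. The differences were 5.98 ± 0.53 (log2, ± SE; limma, adjusted p = 8.94e-11) and 4.23 ± 0.71 (adjusted p = 1.11e-05). That of CAB2R was 2.90 without root replicate 1 and 5.35 without root replicate 3, and that of LHCP was 5.13 and 6.92. Each SE and p uses a spread of the probe set shared by the 12 groups of the model, not that of these 6 arrays. Among roots the SD was 1.80 for LHCP and 2.48 for CAB2R (log2), and among leaves 0.013 and 0.017. PSAH, a subunit of photosystem I, had 9182, 8046 and 9578 in leaves, against 30.2, 92.6 and 342 in roots, a difference of 6.50 ± 0.45 (adjusted p = 4.03e-13). The leaf-type ferredoxin-NADP reductase LFNR1, which reduces NADP at the end of the chain, had 6226, 5454 and 6156 in leaves, against 44.5, 54.8 and 129 in roots. Its groups stood far apart, by 6.45 ± 0.25 (adjusted p = 1.23e-18). Plastocyanin (PETE), the Rieske protein of the cytochrome complex (ISP), the subunit NDH-M of the plastid NADH dehydrogenase-like complex and the photosystem I subunit PSAG were the other called members, with differences of 5.45, 5.52, 5.82 and 3.70. A photosynthetic ferredoxin outside the list, ADI1, differed by 6.19 ± 0.40 (adjusted p = 7.96e-14). Both members not called carry the symbol FNR, and their differences were 0.29 and -2.03.

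**Figure D1:**
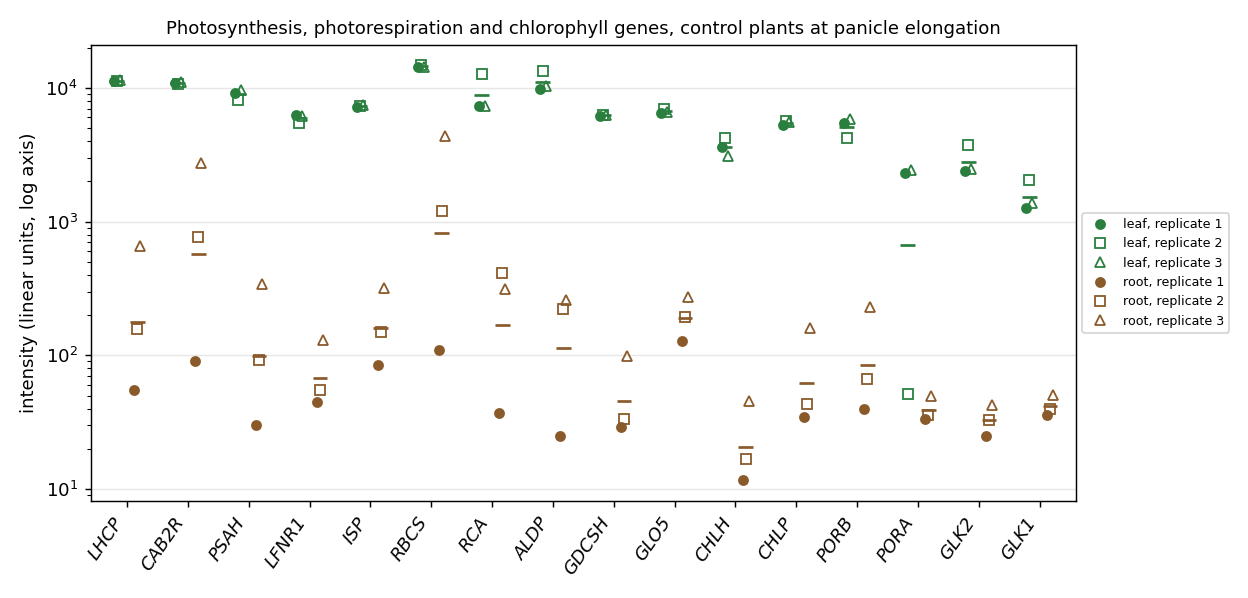
Intensity (linear units on a log axis) of 16 genes of photosynthesis, photorespiration and chlorophyll synthesis in the 3 control leaves (green) and 3 control roots (brown) at panicle elongation; each point is an array and each line the geometric mean of a group. The groups do not overlap in any of the 16, leaf replicate 2 lies far below its replicates in PORA (51.5), and root replicate 3 is the highest root in 15 of the genes, RCA being the exception.

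Carbon fixation followed the same direction. Of 6 Calvin cycle and Rubisco genes, 5 were called higher in leaves. The Rubisco small subunit gene RBCS had 14424, 14705 and 14349 in leaves, against 109, 1201 and 4328 in roots, so that roots spread over more than an order of magnitude below leaves that hardly varied. Its difference was 4.13 ± 0.69 (limma, adjusted p = 1.00e-05), with 2.67 without root replicate 1 and 5.32 without root replicate 3. Its SD (log2) was 2.70 among roots and 0.019 among leaves, which the SE, shared over 12 groups, does not measure. Rubisco activase (RCA), which keeps Rubisco active, had 7309, 12607 and 7355 in leaves, against 37.4, 413 and 315 in roots. The plastid aldolase ALDP had 9862, 13398 and 10362 in leaves, against 25.1, 220.3 and 258 in roots and the largest difference of the list, 6.62 ± 0.49 (adjusted p = 2.55e-12). The bisphosphatase FBPase and the epimerase PPE differed by 6.01 and 2.99. The cytosolic bisphosphatase CFBP1, a sucrose synthesis enzyme outside the list, had 1549, 5508 and 1449 in leaves, against 22.5, 37.8 and 32.6 in roots, with leaf replicate 2 the highest leaf. Its difference was 6.26 ± 0.32 (adjusted p = 4.66e-16), and 5.63 without that leaf.

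Photorespiration genes were called toward the leaf in 5 of 7 cases. GDCSH, the H subunit of glycine decarboxylase in mitochondria, had 6101, 6297 and 6280.3 in leaves, against 29.1, 33.2 and 99.6 in roots. The difference was 7.09 ± 0.36 (adjusted p = 3.14e-16), the third largest among genes that could be named. The 5 include the glycolate oxidases GLO5 and GLO1 (5.13 and 4.41), plastid glutamine synthetase GLN2 (3.49) and ferredoxin-dependent glutamate synthase Fd-GOGAT (2.34). Another glycolate oxidase gene, GLO3, was called higher in roots, with 208, 292 and 229 in leaves, against 2036, 2257 and 2195 in roots. Its groups did not overlap either, at -3.17 ± 0.21 (adjusted p = 2.15e-13), and the fourth, GLO4, was not called (-0.38).

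Pigment synthesis supplied the largest leaf difference among genes that could be named. CHLH, the large subunit of the magnesium chelatase at the first step of chlorophyll synthesis, had 3589, 4179 and 3105 in leaves, against 11.6, 16.8 and 45.3 in roots. Every leaf was above every root, by 7.44 ± 0.32 (adjusted p = 9.23e-18). Of 16 genes of chlorophyll and carotenoid synthesis, 11 were called higher in leaves and none higher in roots, and the 5 not called had differences between 1.14 and 2.15. Geranylgeranyl reductase CHLP, which makes the chlorophyll side chain, differed by 6.46 ± 0.30 (adjusted p = 6.72e-17), and chlorophyllide a oxygenase CAO by 4.70 ± 0.25 (adjusted p = 9.17e-16). The phytoene synthases PSY1 and PSY2, at the entry to carotenoids, differed by 5.44 and 4.71. Among the called members, 4 had leaf replicate 2 more than 3-fold from both other leaves. Protochlorophyllide reductase PORA had 2326, 51.5 and 2437 in leaves, against 33.3, 35.8 and 49.6 in roots, so leaf replicate 2 was close to the roots, and its difference was 4.09 with that leaf and 5.93 without it. The related PORB had 5423, 4198 and 5879 in leaves, against 39.4, 66.4 and 228 in roots and no such leaf. The others were GSA of early tetrapyrrole synthesis and the chelatase subunit CHL9, both low in leaf replicate 2, and PSY2, high in it. Their differences were 2.40, 4.50 and 4.71 with that leaf and 3.10, 5.17 and 4.10 without it.

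Some genes for the plastid's regulation and upkeep were called higher in leaves as well. GLK2, a transcription factor that drives chloroplast development, had 2384, 3722 and 2469 in leaves, against 25.1, 33.00 and 42.7 in roots, and its relative GLK1 had 1273, 2037 and 1375 in leaves, against 35.8, 40.03 and 50.3 in roots. Neither gene overlapped between the organs, with differences of 6.41 ± 0.17 (adjusted p = 5.67e-22) and 5.20 ± 0.21 (adjusted p = 2.70e-18). Of 19 genes of chloroplast development and protein turnover, 9 were called higher in leaves, none higher in roots and 10 were not called. The 9 include the proteases FTSH1, FTSH2 and FTSH9, the chaperones CLPC2 and CLPD2, and the sigma factor Sig2B of the plastid RNA polymerase (4.23). Of 54 redox proteins, 15 were called higher in leaves and none higher in roots. Thioredoxin Trx03, an f-type thioredoxin by its synonym and thus a light-dependent activator of Calvin cycle enzymes, had 5107, 6916 and 5068 in leaves, against 47.5, 63.9 and 128 in roots. It differed by 6.27 ± 0.22 (adjusted p = 1.39e-19). The plastid peroxiredoxin PRXIIE-2, the m-type thioredoxin Trxm5 and the ascorbate peroxidase APX8 differed by 6.16, 5.80 and 5.93. In the glutaredoxins GRXC15, GRXC1 and GRXC10, leaf replicate 2 was low, GRXC15 having 1774, 52.3 and 1846 in leaves, against 24.02, 10.6 and 16.1 in roots and a difference of 5.12 with that leaf and 6.82 without it.

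Several of the largest leaf differences among genes that could be named lay outside these pathways. PDX12, a PDX1-type protein of the vitamin B6 synthesis family, had 3288, 5257 and 3639 in leaves, against 6.74, 48.9 and 53.9 in roots and a difference of 7.25 ± 0.46 (adjusted p = 7.33e-14). The haloacid dehalogenase-like hydrolase gene Os08g0485900 had 2254, 2273 and 2302 in leaves, against 15.7, 18.3 and 28.9 in roots, with almost no spread among leaves, and differed by 6.81 ± 0.21 (adjusted p = 1.03e-20). The EF-hand protein gene Os07g0619400 differed by 6.30 ± 0.19 (adjusted p = 5.98e-21), and Os01g0276900, of unknown function, by 6.55 ± 0.33 (adjusted p = 3.41e-16). The dicarboxylate transporter gene Os01g0556700 had 2146, 4749 and 2409 in leaves, against 154, 16.96 and 15.6 in roots, and root replicate 1 was its highest root. Among genes with a ribosomal protein symbol, 3 of 24 were called, all higher in leaves: CL27, CL18 and rpl5. Whether these act in the cytosol or in an organelle was not tested. CL27 had 2621, 2429.5 and 2782 in leaves, against 89.7, 84.5 and 119 in roots. By their suffix, some probe sets may bind several transcripts, of the same gene or of others. These are those of CHLH, GDCSH, ALDP, CAB2R, RBCS, RCA, FBPase, CFBP1, CAO, GLK1, Trx03, ADI1, PETE, PSY1, PSY2, PORB, CL27, CL18 and Os01g0276900.

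Among genes that could be named, those with the largest differences toward the root were of varied function. Of the 2370 probe sets called higher in roots, 602 could be named. Genes given here by locus number have no symbol and were named from the authors' lists of drought-responsive genes. The class III peroxidase gene PRX74 had 10.2, 6.36 and 9.83 in leaves, against 2704, 2328 and 3260.1 in roots. Its leaves were near the floor of the scale, and the difference of -8.31 ± 0.33 (adjusted p = 1.10e-18) was the largest in either direction. The root-specific protein gene RCc3 (Os10g0552800) had 15.3, 25.5 and 21.3 in leaves, against 4289.6, 3506 and 4525 in roots, a difference of -7.66 ± 0.22 (adjusted p = 2.00e-21). A lipid transfer protein gene close to it in locus number, Os10g0552600, had 28.7, 29.9 and 22.3 in leaves, against 4998, 4306 and 5609.7 in roots. Os02g0582900, described as a conotoxin family protein, had 8.82, 24.3 and 9.82 in leaves, against 1754, 2245 and 4292 in roots, and the pathogenesis-related PR10 gene Os12g36840 had 5.15, 7.77 and 6.68 in leaves, against 927, 782 and 2616 in roots, root replicate 3 being the highest root in both. The glycine-rich wall protein gene Os06g0199000, the ERF factor gene Os10g0390800 and the cytochrome P450 gene Os09g0447500 differed by -7.31, -7.12 and -6.98.

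Water channels and silicon transporters separated the organs by member. TIP2;1, a vacuolar membrane aquaporin, had 28.4, 26.2 and 16.5 in leaves, against 4370.2, 3572 and 4086 in roots, a difference of -7.44 ± 0.19 (adjusted p = 1.68e-22). Lsi1, the channel that lets silicic acid into rice roots, had 526, 1123 and 551 in leaves, against 8333, 10234 and 6510.4 in roots, and Lsi2, which moves it on toward the stele, had 28.5, 26.04 and 21.2 in leaves, against 1819, 2744 and 1014 in roots. Leaves held a clear Lsi1 signal, and were near background for Lsi2, with differences of -3.58 ± 0.23 (adjusted p = 1.01e-13) and -6.10 ± 0.28 (adjusted p = 2.71e-17). Of 26 genes of silicon transport and aquaporins, 1 was called higher in leaves and 6 higher in roots. The 6 include the plasma membrane aquaporins PIP2;4, PIP2;5 and PIP2;6 (-4.84, -4.66 and -2.35). The 1 called higher in leaves is a relative of these, PIP2;7, with 7797, 3526 and 7906 in leaves, against 21.9, 53.5 and 581 in roots. Leaf replicate 2 was its lowest leaf and root replicate 3 its highest root, and the difference was 6.09 ± 0.64 (adjusted p = 2.88e-09).

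**Figure D2:**
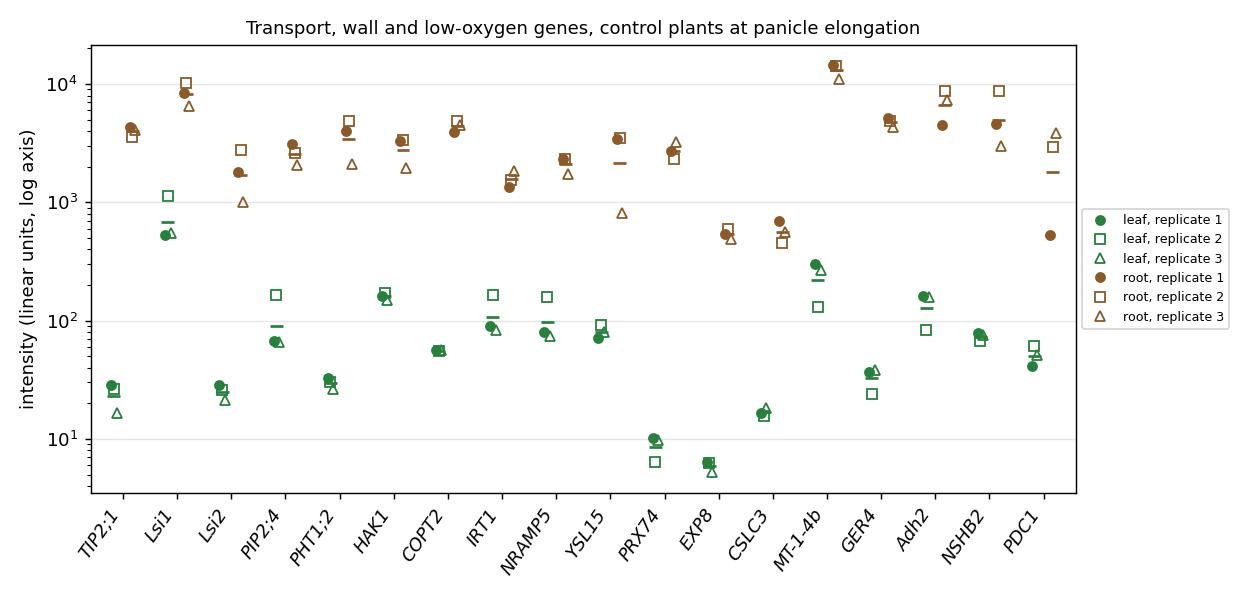
Intensity (linear units on a log axis) of 18 genes of transport, cell wall and low-oxygen metabolism in the 3 control leaves (green) and 3 control roots (brown) at panicle elongation; each point is an array and each line the geometric mean of a group. Every root lies above every leaf in all 18 genes, and the roots of PDC1 span 527 to 3876.

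Mineral uptake genes that were called lay mostly toward the root, though most were not called. The phosphate transporter PHT1;2 had 32.9, 30.2 and 26.6 in leaves, against 4000.3, 4875 and 2105 in roots, a difference of -6.86 ± 0.24 (adjusted p = 9.04e-20). PHO1;2, which loads phosphate into the xylem, had 54.4, 259 and 55.1 in leaves, against 2922, 3519 and 2869 in roots. Of 17 genes of phosphate and sulfate transport, none was called higher in leaves and 5 higher in roots. Of 53 genes of metal transport and phytosiderophores, 2 were called higher in leaves and 12 higher in roots. The copper transporter COPT2 had 56.4, 55.2 and 56.1 in leaves, against 3939.9, 4912 and 4549 in roots, with the leaves nearly equal, and differed by -6.31 ± 0.26 (adjusted p = 3.40e-18). The iron uptake genes IRT1 (-3.87) and YSL15 (-4.73), the nicotianamine synthases NAS1, NAS2 and NAS3 (-3.14, -3.68 and -4.90) and NRAMP5 of manganese uptake (-4.43) were called as well. YSL15 had 71.3, 92.7 and 80.1 in leaves, against 3454, 3526 and 809 in roots, and root replicate 3 was the lowest root in it and in NAS3. The 2 metal genes called higher in leaves were the zinc transporter ZIP8 (4.41) and the vacuolar iron transporter VIT1 (3.52), while its relative VIT1.2 was called higher in roots (-4.00).

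Most potassium and nitrogen genes were not called, where 7.94% of all genes were called higher in leaves and 8.55% higher in roots. Of 24 genes of potassium and sodium transport, 2 were called higher in leaves and 4 higher in roots. HAK27 had 1047, 1814 and 946 in leaves, against 29.98, 26.2 and 27.9 in roots, a difference of 5.44 ± 0.27 (adjusted p = 3.01e-16), and HAK22 followed it. The high-affinity potassium transporter HAK1 had 161, 172 and 150.4 in leaves, against 3271, 3340.1 and 1948 in roots, a difference of -4.11 ± 0.21 (adjusted p = 4.64e-16). The channel AKT1, HAK12 and the sodium transporter HKT1;5 were also called higher in roots. Of 20 genes of nitrogen uptake and assimilation, 1 was called higher in leaves, GLN2, and 3 higher in roots, NRT2.3 and NRT2.2 of nitrate uptake and the ammonium transporter AMT1-2. NRT2.3 had 112, 493 and 122 in leaves, against 579.9, 1850.3 and 4046 in roots, and leaf replicate 2 came close to the lowest root. Its difference was -3.11, with -3.81 without that leaf and -2.46 without root replicate 3. The nitrogen count toward the root was 1 without root replicate 2. AMT1-2 kept its direction but passed below 5-fold when either leaf replicate 1 or 3, or root replicate 1 or 2, was left out.

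Cell wall synthesis and loosening genes were called only toward the root, and most were not called. Of 44 genes of cellulose synthases and wall synthesis, none was called higher in leaves and 14 higher in roots, and of 30 expansins and other wall-loosening genes, none and 7. The expansin EXP8 had 6.44, 6.30 and 5.20 in leaves, against 535, 590.3 and 492 in roots, a difference of -6.50 ± 0.34 (adjusted p = 8.03e-16). CSLC3, of the family that makes the xyloglucan backbone, had 16.6, 15.5 and 18.3 in leaves, against 697, 452 and 558 in roots. Both groups were tight in these 2 genes. The secondary wall cellulose synthases CESA4 and CESA9 differed by -2.97 and -2.71, and the primary wall members CESA5 and CESA6 by -2.51 and -2.49. Of 33 genes of lignin, laccases and peroxidases, 4 were called higher in leaves and 9 higher in roots, and gene families split between the organs. Among cinnamyl alcohol dehydrogenase genes, CAD3 had 3683, 7155 and 3871 in leaves, against 54.5, 89.9 and 146 in roots, and CAD8A had 35.7, 59.2 and 37.9 in leaves, against 2708, 1688 and 1681 in roots. Among 4-coumarate ligases, 4CL2 was called higher in leaves and 4CL5 and 4CL1 higher in roots (-4.53 and -2.85). 4CL2 had 179, 1779 and 183 in leaves, against 13.7, 18.6 and 34.8 in roots, with leaf replicate 2 the highest, and its difference was 4.23 with that leaf and 3.13 without it. Of 22 CASP-like membrane proteins, relatives of the proteins that place the Casparian strip, 3 were called higher in leaves and 7 higher in roots, CASPL1U3 having 30.6, 40.1 and 25.6 in leaves, against 2773, 2528 and 2538 in roots.

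Genes of low-oxygen metabolism were the list with the lowest median, -5.11. Of its 6 genes, none was called higher in leaves and 4 higher in roots. Alcohol dehydrogenase Adh2, the last step of ethanol fermentation, had 162, 82.7 and 158 in leaves, against 4526, 8710.0 and 7279 in roots. The non-symbiotic hemoglobin NSHB2, which turns over nitric oxide, had 77.9, 67.6 and 75.1 in leaves, against 4625, 8732 and 2978 in roots. Both stood apart without overlap, by -5.68 ± 0.25 (adjusted p = 1.80e-17) and -6.07 ± 0.23 (adjusted p = 3.42e-19), with root replicate 2 the highest root. Pyruvate decarboxylase PDC1, the step before Adh2, had 41.6, 60.6 and 51.2 in leaves, against 527, 2920.2 and 3876 in roots, and root replicate 1 was the lowest root. The 2 other pyruvate decarboxylases, PDC2 and PDC3, were not called (-1.27 and -0.30). The B12D family gene Os07g0604600 had 21.6, 16.1 and 15.2 in leaves, against 1656, 5631 and 4145 in roots, again with root replicate 1 the lowest, and differed by -7.60 ± 0.29 (adjusted p = 6.96e-19).

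Metallothioneins and germin-like proteins showed a similar share. Of 16, none was called higher in leaves and 8 higher in roots. The metallothionein gene MT-1-4b had 301, 130.1 and 269 in leaves, against 14490.2, 14217 and 10943 in roots, and the germin-like gene GER4 had 36.97, 24.2 and 38.2 in leaves, against 5174, 4832 and 4297 in roots. The differences were -5.90 ± 0.34 (adjusted p = 5.73e-15) and -7.20 ± 0.38 (adjusted p = 8.76e-16). Germin-like genes GER1 and GER2 were highest in root replicate 1. Both families hold close copies, and the probe set of MT-1-4b may bind several transcripts, so the gene behind a signal is uncertain.

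Genes of cell division and the cytoskeleton were called almost only toward the root, with 1 of 114 called higher in leaves and 22 higher in roots, and a median of -0.95. The mitotic cyclin CYCB1-1 had 26.3, 22.2 and 22.8 in leaves, against 379, 333 and 481 in roots, and the replication helicase subunit MCM4 had 20.5, 23.4 and 24.8 in leaves, against 297, 310.4 and 225 in roots. The arrays of each organ lay close together, with differences of -4.05 ± 0.21 (adjusted p = 7.66e-16) and -3.59 ± 0.23 (adjusted p = 6.76e-14). The helicase subunits MCM2, MCM5 and MCM6, the cyclins CYCB2-1 and CYCB2-2, and the tubulins TUB6 and TUB8 were called too. The 1 member called toward the leaf, the kinesin KIN14L (2.33), passed below 5-fold without leaf replicate 2 and without root replicate 1.

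The hormone lists were counted separately, and no difference between them was tested. Of 60 auxin genes, none was called higher in leaves and 12 higher in roots. The repressors IAA31 and IAA30 differed by -4.82 ± 0.21 (adjusted p = 8.49e-18) and -4.79 ± 0.25 (adjusted p = 9.28e-16), IAA31 having 48.01, 83.04 and 50.9 in leaves, against 1557, 1574 and 1857 in roots. PIN5, an auxin efflux carrier that also carries the name PIN9, had 21.3, 19.8 and 14.5 in leaves, against 188, 1250.2 and 1897 in roots, and root replicate 1 was far below the other roots. Of 47 genes of jasmonate and defence, 4 were called higher in leaves and 8 higher in roots. The lipoxygenase LOX1.1 and the allene oxide synthase AOS4, of oxylipin synthesis, had differences of -5.62 and -5.05, and were highest in root replicate 1. The repressor JAZ8 was called higher in leaves, with 2692, 753 and 2703 in leaves, against 514, 149 and 259 in roots, a difference of 2.70 with leaf replicate 2 and 3.32 without it. Of 106 genes of abscisic acid and ethylene, 3 were called higher in leaves and 12 higher in roots. The shares over all genes were 7.94% and 8.55%. The 3 were the phosphatases PP2C05 and PP2C01 and the abscisic acid hydroxylase ABA8OX2, and this count was 6 without leaf replicate 2. Of the 12, 8 were basic leucine zipper factors, taken in by symbol, and a role of each in either hormone was not tested. Among them TGAL4 had 21.02, 22.6 and 21.7 in leaves, against 809, 1169 and 791 in roots. Its difference was -5.38 ± 0.15 (limma, adjusted p = 5.13e-22). None of 15 genes of gibberellin, strigolactone and brassinosteroid was called, and 1 was without leaf replicate 2 or without root replicate 3. The gibberellin 2-beta-dioxygenase gene Os05g0560900, which this list does not hold, was called higher in roots. Its difference ran between -5.51 and -3.99 when 1 array was left out. Of 31 cytokinin genes, 3 were called higher in leaves: the cytokinin oxidase CKX4, the activating enzyme LOG and the response regulator RR1. LOG had 4476, 4234 and 4514 in leaves, against 240.4, 230.1 and 420.2 in roots, a difference of 3.95 ± 0.21 (adjusted p = 1.35e-15). The count toward the root, 2 with CKX11 and LOGL6, was 0 or 1 when any of 5 single arrays was left out.

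Sugar genes were called in both directions. Of 31 genes of sucrose and starch metabolism, 3 were called higher in leaves and 4 higher in roots, and of 18 sugar transporters, 3 and 2, the first list near the shares of all genes. AGPS2, a subunit of the enzyme that commits glucose to starch, had 2497, 2649 and 2464 in leaves, against 74.9, 62.6 and 138 in roots, and differed by 4.87 ± 0.21 (adjusted p = 1.24e-17). The sugar transporter SWEET1b had 2084, 3969.9 and 2099 in leaves, against 60.3, 60.4 and 68.2 in roots, and the sucrose transporter SUT1, which takes up sucrose at the phloem, had 662, 1365 and 659.6 in leaves, against 99.00, 111 and 148 in roots. Leaf replicate 2 was the highest leaf in both, and no leaf overlapped the roots. The cell wall invertase CIN2, which splits sucrose outside the cell, had 10.1, 8.46 and 10.5 in leaves, against 585, 393 and 218 in roots, and the sucrose synthase SUS1 had 359.8, 115 and 299 in leaves, against 5568, 5993 and 3827 in roots. Both were higher in every root, with differences of -5.25 ± 0.27 (adjusted p = 6.30e-16) and -4.44 ± 0.33 (adjusted p = 2.86e-12). The transporters SWEET14 and MST3 were also called higher in roots (-3.16 and -2.80). SWEET2b, called higher in leaves, had 55.2, 2943 and 53.7 in leaves, against 26.7, 31.7 and 53.4 in roots, so the call rested on leaf replicate 2 alone, and the difference was 2.53 with that leaf and 0.61 without it.

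Developmental regulators also lay on both sides. Of 44 homeobox genes, 5 were called higher in leaves and 8 higher in roots. The HD-Zip genes GL2-2 and GL2-6, of the class that acts in the epidermis, had 1246, 3393 and 1245 in leaves, against 38.6, 39.5 and 33.7 in roots (GL2-2) and 660.3, 607 and 641 in leaves, against 19.3, 21.1 and 24.8 in roots (GL2-6). The KNOX gene HOS9 had 8.07, 13.9 and 7.997 in leaves, against 363, 235 and 552 in roots. None of these groups overlapped, with differences of 5.55 ± 0.23 (adjusted p = 3.74e-18), 4.88 ± 0.16 (adjusted p = 1.32e-20) and -5.23 ± 0.21 (adjusted p = 2.97e-18). That of GL2-2 was 5.07 without leaf replicate 2, its highest leaf. In the list of leaf polarity and growth factors, 4 of 26 were called higher in leaves and 2 higher in roots. The 4 were YAB1, YAB2 and YAB5 of the YABBY family and LG1 of the leaf blade boundary, with differences between 2.97 and 4.50. MADS27 and MADS25, of a clade tied to root growth and nitrate in Arabidopsis, were called higher in roots (-4.81 ± 0.19 and -3.62 ± 0.22; adjusted p = 1.03e-18 and 3.62e-14). SHR1, which patterns the root ground tissue, was the 1 of 10 root development genes called, with 27.3, 39.6 and 23.5 in leaves, against 265, 282 and 168 in roots. By their suffix, further probe sets may bind several transcripts, of the same gene or of others. They include those of TIP2;1, PIP2;7, ZIP8, HAK1, HAK22, AKT1, NRT2.2, NRT2.3, CAD3, CYCB2-2, AGPS2, SWEET14 and GL2-2. The same holds for YAB1, LEA19, RCABP69, MADS3, FTSH2, FTSH9, Trxm5, ABA8OX2, LAC7, CCA1, TBL6 and HOS66.

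The share of called members by list is plotted for all 39 lists. Lists of photosynthesis, pigments, plastids and redox proteins lay furthest from the share of all genes toward the leaf. Lists of low-oxygen metabolism, metallothioneins and germins, cell walls, CASP-like proteins and phosphate transport lay furthest toward the root. Diterpenoid phytoalexin genes had 4 of 17 called higher in leaves and 1 higher in roots, and beta-glucosidases 3 of 27 and 6. Calcium sensors and kinases had 5 of 77 called each way, with 3 toward the leaf without root replicate 2 and 8 toward the root without leaf replicate 2. Of 8 dehydrins and late embryogenesis genes, none was called higher in leaves and 2 higher in roots, but none without root replicate 1. Of 48 heat shock and chaperone genes 2 were called higher in leaves and 1 higher in roots, and of 50 C3H zinc finger genes 1 and 2, below the shares of all genes. The heat shock count toward the leaf was 1 without leaf replicate 2, root replicate 1 or root replicate 3. The diterpenoid count toward the root was 2 without root replicate 2 or 3. The lists were matched by gene symbol and some hold few members, so the shares describe these genes and no more.

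**Figure D3:**
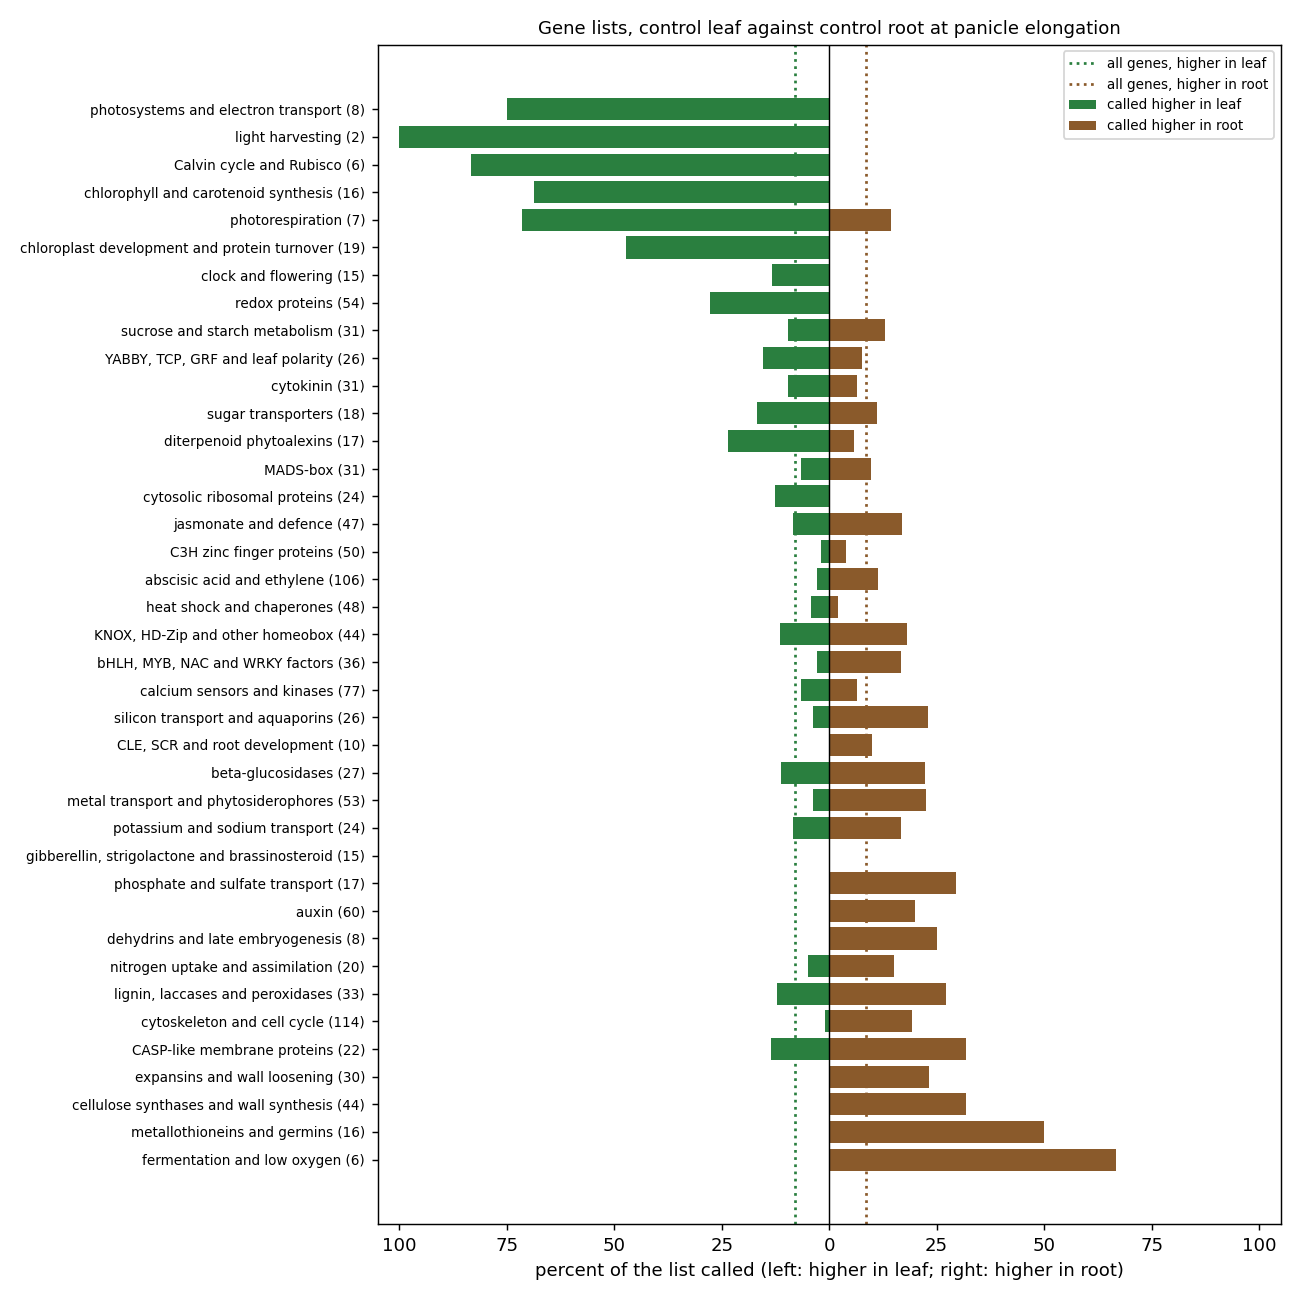
Percent of each gene list called higher in control leaves (left, green) and higher in control roots (right, brown) at panicle elongation, with the number of genes of a list in parentheses and lists ordered by their median difference. Dotted lines give the shares over all genes, 7.94% in the leaf direction and 8.55% in the root direction. The lists hold only genes with a symbol, whose own shares were not computed. The list labelled cytosolic ribosomal proteins was matched by symbol, and the cell compartment of its members was not tested.

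The same organs at tillering, on arrays that the comparison at panicle elongation did not use, gave largely the same picture. At tillering 2606 probe sets (4.55%) were called higher in leaves and 2174 (3.8%) higher in roots, or 7.65% and 7.61% of genes. The leaf calls shared by both stages numbered 2233, which is 84.1% of the calls at panicle elongation and 85.7% of those at tillering. The shared root calls numbered 1830, or 77.2% and 84.2%. At tillering 2653 of the 2656 probe sets called higher in leaves and 2360 of the 2370 called higher in roots kept their sign, and none was called the opposite way. CHLH differed by 7.44 at panicle elongation and 7.61 at tillering, PRX74 by -8.31 and -6.87, and TIP2;1 by -7.44 and -7.20. Each probe set was selected on the arrays of panicle elongation, so its value there is a description.

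A difference between the stages was itself tested as panicle elongation minus tillering. It was called in 30 probe sets in the leaf direction (0.0524%) and in 130 in the root direction (0.227%), and in 0.48% of genes. Of these, 12 and 63 were called whichever of the 12 arrays was left out. The count in the leaf direction changed with the setting. Without leaf replicate 2 at panicle elongation 67 and 118 were called, without root replicate 2 48 and 171, and without root replicate 3 45 and 127. With only the groups of the comparison 15 and 89 were called. Hd3a, the florigen that leaves send to the shoot tip, showed the largest difference in the leaf direction among genes that could be named. Its leaves had 950.0, 794 and 1067 at panicle elongation, against 71.7, 37.00 and 36.7 at tillering. Its roots had 20.1, 23.8 and 22.9 at panicle elongation, against 22.1, 21.2 and 22.6 at tillering. Thus the leaves at panicle elongation stood apart from the other 9 arrays of the 12, by 5.39 ± 0.23 over the roots (adjusted p = 7.07e-18), and the difference between the stages was 4.32 ± 0.32 (adjusted p = 2.89e-09). Control leaves at booting had 1685, 1358 and 1715, and control young panicles had 34.4, 27.5 and 26.2. Droughted leaves at panicle elongation had 15.7, 16.6 and 20.01, at the level of the roots.

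**Figure D4:**
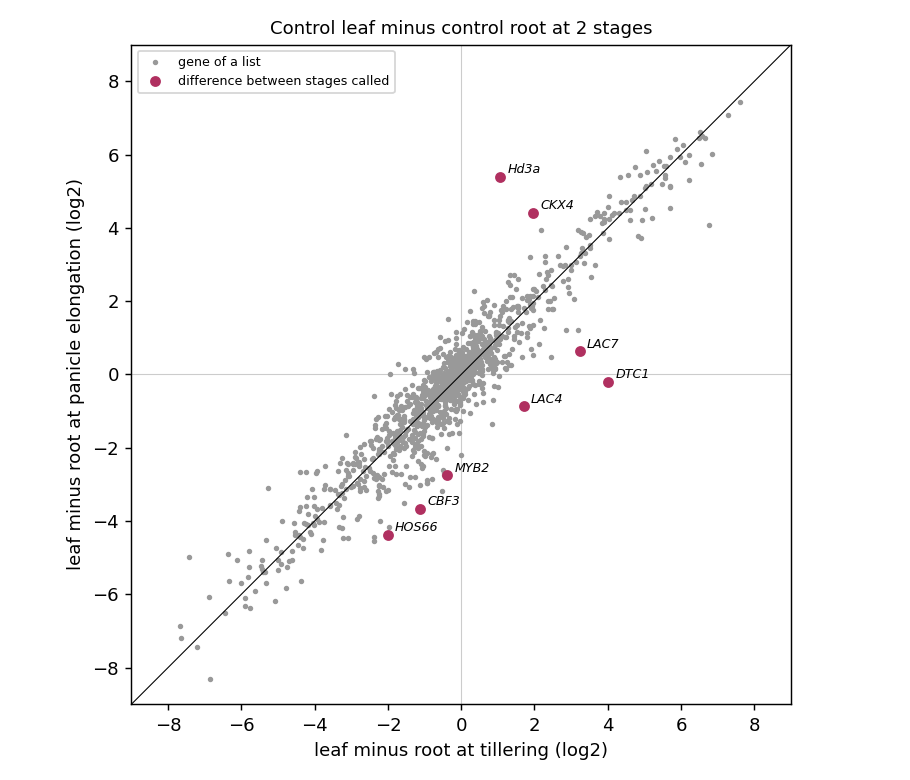
Leaf minus root (log2) of 1231 listed genes in control plants at tillering (horizontal axis) and at panicle elongation (vertical axis), 1 point per gene; the line marks equal differences. The genes whose difference between the stages was called are coloured and named, with Hd3a at 1.07 and 5.39.

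Other genes changed their organ bias with stage. CKX4, a cytokinin oxidase, had 1379, 2229 and 1257 in leaves at panicle elongation, against 644, 592 and 601 in leaves at tillering. Its roots had 42.5, 71.1 and 135 at panicle elongation, against 169.9, 149.8 and 155 at tillering. Every leaf was higher and every root lower at panicle elongation, and the difference between stages was 2.45 ± 0.41 (adjusted p = 4.85e-04). This difference between stages passed below 5-fold without leaf replicate 2 (2.20) or without root replicate 1 (2.05) of panicle elongation. In the opposite direction DTC1, a diterpene synthase of phytocassane synthesis also named KSL7, had 25.7, 339.7 and 30.5 in leaves at panicle elongation, against 987, 963 and 1131 in leaves at tillering. Its roots had 56.7, 43.1 and 164 at panicle elongation, against 39.3, 59.4 and 111 at tillering. Leaves at panicle elongation thus lay below the roots, except replicate 2, and all far below those at tillering. The difference was -4.21 ± 0.78 (adjusted p = 0.0014). TBL6, of the family that acetylates xylan, had 132, 63.4 and 162 in leaves at panicle elongation, against 1272, 1356 and 1060.2 in leaves at tillering. Its roots had 1586, 1169 and 1649 at panicle elongation, against 2071, 1462 and 1609 at tillering. Its roots overlapped between the stages while its leaves did not, and the difference was -3.24 ± 0.59 (adjusted p = 0.0012). Os07g0645000, a pathogenesis-related Tpx-1 family gene, and the KNOX-named gene HOS66 differed by -2.63 ± 0.39 and -2.38 ± 0.42 (adjusted p = 1.22e-04 and 7.55e-04), with leaves lower at panicle elongation. The call of HOS66 was lost without leaf replicate 2 (-2.02) or root replicate 3 (-2.19) of panicle elongation and without leaf replicate 1 of tillering (-2.30). LAC7, a laccase gene, was called as well (-2.61 ± 0.75, limma, adjusted p = 0.043), but only 4 of the 12 fits without 1 array called it. Its leaves at panicle elongation had 1209, 166 and 1225. Without leaf replicate 2 its difference between stages was -1.65 and not called.

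Under drought the organ difference was smaller for many of these transcripts. On droughted arrays at panicle elongation 1451 probe sets (2.53%) were called higher in leaves and 1768 (3.09%) higher in roots, or 4.4% and 6.58% of genes. Of the 2656 probe sets called higher in control leaves, 906 were called the same way under drought and 11 the opposite way, and their median difference was 1.57 under drought, against 3.71 in control plants. Of the 2370 called higher in control roots, 935 were called the same way and 31 the opposite way, with medians of -1.84 under drought and -3.30 in control plants. On the control arrays at tillering the same sets of probe sets had medians of 3.67 and -3.17. The control medians are a description, since these arrays chose the probe sets. Drought minus control of the organ difference was called in 1491 probe sets in the leaf direction (2.6%) and 1916 in the root direction (3.35%), and in 10.8% of genes. GDCSH had 32.4, 51.9 and 39.3 in droughted leaves and 26.4, 22.3 and 25.99 in droughted roots, a difference of 0.70 under drought, against 7.09 in control plants. That change of the difference was -6.38 ± 0.50 (adjusted p = 5.55e-11), while ALDP changed by 0.02 ± 0.70 (adjusted p = 0.99) and GLK2 by 0.34 ± 0.25 (adjusted p = 0.3). Among root genes NSHB2 had 54.4, 68.5 and 58.5 in droughted leaves and 82.02, 77.5 and 72.5 in droughted roots, so the organs lay close together, and its difference changed by 5.71 ± 0.32 (adjusted p = 7.94e-14). TIP2;1 and COPT2 differed by -7.36 and -6.48 under drought, against -7.44 and -6.31 in control plants. The calmodulin-like gene CML31 had 4237, 3976 and 4540.2 in droughted leaves and 439, 809.7 and 851 in droughted roots. It was thus higher in leaves under drought and higher in roots without it, a change of 6.60 ± 0.88 (adjusted p = 6.68e-07).

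The called probe sets were also read in the other control tissues, as a description. The median log2 intensity of those called higher in leaves was 9.95 to 10.04 in leaves and 5.57 to 5.99 in roots at panicle elongation. It was 9.65 to 9.99 in control leaves at booting and 7.49 to 7.69 in control young panicles, between leaf and root. Probe sets called higher in roots had medians of 5.27 to 5.32 in leaves and 9.00 to 9.20 in roots at panicle elongation. At booting these were 5.10 to 5.20 in leaves and 6.68 to 6.76 in young panicles.

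Some genes spread within an organ by more than many genes differed between organs. Among leaves, replicate 2 accounted for the widest spreads. The DnaJ gene Os01g0606900 had 4796, 66.5 and 5071 in leaves, against 63.7, 51.5 and 85.8 in roots, and LIS, whose symbol stands for linalool synthase, had 725, 12.6 and 788 in leaves, against 5.93, 10.6 and 7.82 in roots. In both, leaf replicate 2 lay at the level of the roots, and without it the differences were 6.23 and 6.58, against 4.16 and 4.61 with it. Leaf replicate 2 was also the highest or lowest leaf in clock genes, chosen after their values were seen. The morning gene CCA1 had 718, 6439.8 and 615 in leaves, against 503, 757 and 2810.1 in roots, and GIGANTEA (GI), of the evening, had 6680.4, 3884 and 7029 in leaves, against 5046, 7310.1 and 2954 in roots. CCA1 was high and GI low in leaf replicate 2 and in root replicate 3, and the organs overlapped in both genes. The evening gene PRR1 had 1466, 770.3 and 1423 in leaves, against 647, 1016 and 388 in roots, again lowest in these arrays. PRR95, another clock gene, had 5559, 4390.1 and 5553 in leaves, against 1136, 1870.0 and 1802 in roots, with leaf replicate 2 only slightly lower and root replicate 1 the lowest root. The hour at which each plant was sampled is not given in the sources used here, and the part of these values in the results was not tested.

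Root replicates 1 and 3 stood apart in other genes. Root replicate 3 was highest in mesophyll genes such as RCABP69 (28.02, 226 and 1101 in roots) and in the cold-response factors CBF3 (269, 309.9 and 1041) and DREB1B (395, 514 and 2376). Root replicate 1 was highest in the late embryogenesis gene LEA19, with 43.4, 27.5 and 43.9 in leaves, against 1321, 39.4 and 504 in roots, and in the dehydrin RAB16D, with 42.2, 59.3 and 47.7 in leaves, against 1438, 64.7 and 288 in roots. Root replicate 2 overlapped the leaves in LEA19, and without root replicate 1 the differences were -1.91 and -1.47, against -2.99 and -2.60 with it, so that neither call held. Chitinase Cht1 had 31.9, 17.1 and 28.02 in leaves, against 4668, 929.6 and 108 in roots, a spread over all 3 roots, yet all lay above the leaves. EIL1B, a relative of ethylene-insensitive factors, had 12.5, 849.6 and 14.3 in leaves, against 938, 43.1 and 1006 in roots. Replicate 2 was the high array among leaves and the low array among roots, the organs overlapped, and the difference was -2.69 ± 1.98 (adjusted p = 0.28). Such high and low arrays within a group also occurred elsewhere, as EIL1B had 1403, 16.3 and 2514 in control leaves and 1214, 80.7 and 1512 in control roots at tillering, and 24.03, 1439 and 23.1 in droughted leaves and 94.3, 1743 and 2040.2 in droughted roots at panicle elongation. Whether this reflects the plants or the labels cannot be told apart.

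**Figure D5:**
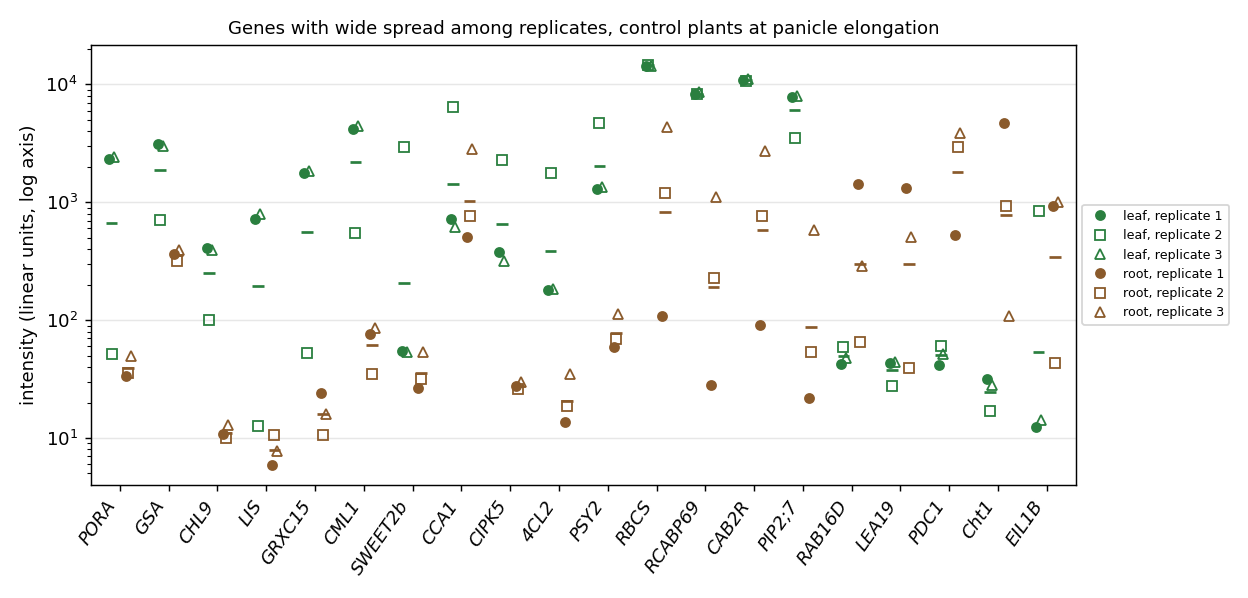
Intensity (linear units on a log axis) of 20 genes with wide spread among replicates in the 3 control leaves (green) and 3 control roots (brown) at panicle elongation, chosen in part after their values were seen; each point is an array and each line the geometric mean of a group. Leaf replicate 2 is the odd leaf in PORA (51.5) and SWEET2b (2943), and the roots of RBCS span 109 to 4328.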

How the data were processed

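Control leaves and control roots of 1 rice line were hybridised to Affymetrix rice genome arrays, 3 arrays a group. The authors quantified scans with GCOS and normalized and modelled them in dChip, and the deposited values are intensity on a linear scale. The dChip version and its use of mismatch probes are not given in the sources used here. Values under 1 were set to 1 and log2 taken, and 123 control probe sets were left out. Of 57258 rice probe sets, 22436 matched 1 gene in the reference tables, 95 several and 34727 none. All value columns were used (0 left out). The model had 12 groups and 36 arrays, fitted in limma 3.58.1 (R 4.3.3) with 24 residual degrees of freedom, and p-values were adjusted over all 57258 probe sets (Benjamini-Hochberg). The fit was tested on simulated data, in which each probe set had the same spread in all groups. That test does not cover arrays that stand apart, such as leaf replicate 2. No intensity was set against that of another probe set, and a gene is read from its probe set with the highest mean over all arrays. Genes were named by rule: the largest called differences that could be named, in all and in each list and interaction, the markers, and the widest spreads. Others were chosen after their values were seen. Members and gene lists were chosen with earlier results of these data known. Alternatives changed the minimum fold, floor, filter, normalization, weights, probe sets, samples in the fit and test, or left out 1 array. Values in the authors' own comparison tables were not used. Descriptions in their lists of drought-responsive genes did name probe sets without a symbol. Of the 57258 probe sets 3951 could be named, and those lists described 867.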

Additional observations from a re-analysis of the deposited data

Results flagged for a closer look

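The difference between control leaves and control roots was itself not the same in other settings, by the test of that change in limma. Set against tillering, 30 probe sets changed in the leaf direction and 130 in the root direction at panicle elongation. Among genes that could be named, the organ difference was greater in the leaf direction for Hd3a (4.32), Os02g0162600 (3.06), Os04g0134900 (2.99) and CKX4 (2.45). It moved in the root direction for DTC1 (-4.21), TBL6 (-3.24), Os04g0635400 (-2.65) and Os07g0645000 (-2.63). Os02g0162600, of unknown function, had 202, 182 and 223 in leaves at panicle elongation, against 27.02, 49.3 and 49.1 in leaves at tillering, and under 7 in every root of both stages. Os04g0134900, a hypothetical protein gene, had 82.3, 136 and 168 in roots at panicle elongation, against 1032, 1295 and 513 in roots at tillering, while its leaves lay between 12.9 and 21.8 at both stages. Os04g0635400, also of unknown function, lost its call without leaf replicate 3 (-2.16) or without root replicate 3 (-2.10) of tillering, and its roots overlapped between the stages.

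Set against control plants, drought changed the organ difference of 1491 probe sets in the leaf direction and 1916 in the root direction. Genes without a symbol could be named only where the authors' lists of drought-responsive genes describe them. The ranking among genes that could be named is therefore in part set by drought responses in these same arrays. The largest in the leaf direction among genes that could be named were the class III chitinase gene Os11g0702100 (9.11), MS (8.44), the gibberellin 2-beta-dioxygenase gene Os05g0560900 (7.79) and the B12D family gene Os07g0604600 (7.76). Os11g0702100 had 1532, 1709 and 1865 in droughted leaves, against 25.2, 30.2 and 22.6 in control leaves, and 51.5, 60.8 and 96.5 in droughted roots, against 632, 412 and 686 in control roots. Its leaves and roots thus changed places. Os07g0604600 had 12.5, 18.9 and 20.8 in droughted roots, against 1656, 5631 and 4145 in control roots, while its leaves stayed under 22 in both. The largest in the root direction were the dicarboxylate transporter gene Os01g0556700 (-8.56), the sugar transporter gene Os03g0197100 (-8.04), the plastocyanin-like gene Os09g0469300 (-8.04) and Os01g0102300 (-7.67), of unknown function. Os03g0197100 had 219, 399 and 245 in droughted leaves, against 3583, 8281 and 3636 in control leaves, and 4551, 4318 and 4059 in droughted roots, against 962, 129.9 and 177 in control roots. Os09g0469300 had 3237, 3032 and 2480.0 in droughted roots, against 73.96, 72.4 and 54.6 in control roots.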

How the results depend on the processing

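The 2656 probe sets called higher in leaves and 2370 called higher in roots held within 1.5 times under all alternatives but 2. With a minimum of 2-fold, 6368 and 6341 were called, and with 1 probe set per gene, where fewer were tested, 1422 and 1530. Leaving out 1 array gave 2596 to 2808 higher in leaves and 2290 to 2435 higher in roots, and without leaf replicate 2 the 2808 held 2479 of the 2656. Quantile normalization gave 2568 and 2496. A plain t-test on log2 values was also run at the methods' threshold, but the SAM software that they name was not. This t-test gave 2547 and 2313 unadjusted, and 2284 and 2139 after Benjamini-Hochberg. The 160 calls of panicle elongation minus tillering became 1409 at 2-fold, 90 with 1 probe set per gene, 104 with only the groups of the comparison, 106 without probe sets that may bind several transcripts, and 133 to 219 without 1 array. The 3407 of drought minus control became 12408 at 2-fold, 1931 with 1 probe set per gene, and 3282 to 3780 without 1 array.

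Same-numbered arrays did not deviate together (correlations of 0.045, -0.131 and -0.121), so the numbers were not taken to pair plants. With the replicate number as a block, 2582 and 2326 probe sets were called, and 72 for panicle elongation minus tillering, 8 in the leaf direction and 64 in the root direction.

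Of 2236 values of named genes under alternatives, 2163 kept direction and side of the threshold, 46 lost the call, 1 gained it (EIL1B, -4.26 with array weights) and 26 changed sign, none of them called. With array weights, PRX112 was 0.80, MADS58 -0.10, ASY1 -0.070 and Os03g0582000 1.19. With leaf replicate 2 and root replicate 3 both left out, an alternative chosen after seeing the data, PRX112 was 0.67, MADS45 -0.054, MADS58 -0.34, TDR 0.045, ASY1 -0.082 and Os03g0582000 1.10. Without 1 array, the differences ran between -0.25 and 0.0019 for NAAT1, -0.60 and 0.95 for PRX112, -0.11 and 0.41 for MADS58, -0.48 and 0.11 for TDR, -0.013 and 0.21 for C6, -0.091 and 0.33 for ASY1, -0.18 and 0.060 for PAIR1, -1.40 and 0.46 for DTC1, and -1.94 and 1.47 for Os03g0582000. Calls were lost in at least 1 alternative for AMT1-2, CKX11, CLPB-C, KIN14L, LEA19, LIS, LOGL6, Os01g0606900, Os04g0134900, Os04g0635400, RAB16D and SWEET2b. Where no array or alternative is named above, the cause was not tested. With 3 arrays a group and values near background in many probe sets, folds of dim genes are uncertain. Probe sets that may bind several transcripts cannot be assigned to 1 transcript, and some of them not to 1 gene.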

Other observations

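Over the 12 groups of the study, the replicate with the most probe sets at least 5-fold from both others was replicate 2 in 9 groups, replicate 1 in 3 and replicate 3 in 0. In the leaf and root groups described here it was leaf replicate 2 and root replicate 1.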
